A study of Macaca mulatta with 30 samples.

Results

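The fetal hippocampus of rhesus macaques was profiled 5 days after the mother received a single intramuscular injection of either saline (1 mL) or the clinical drug. The clinical drug, Celestone, is an equal mixture of betamethasone-phosphate and the slow-release betamethasone-acetate, and it was given at 0.25 mg/kg. Members were chosen by the names of the libraries in the hippocampus count table: 5 clinical libraries (CEL115, CEL120, CEL126, CEL238 and CEL245) and 5 saline libraries (CTL092, CTL101, CTL113, CTL209 and CTL212), 10 of the 30 samples of the series. Each library came from 1 fetus of a time-mated pregnancy delivered preterm, at a gestational age of 130 to 135 days (saline) and 131 to 136 days (clinical). Another hippocampus group of 5 libraries (BAC128, BAC130, BAC136, BAC235 and BAC237), from fetuses whose mothers received betamethasone-acetate alone (Beta-Ac, 0.125 mg/kg), entered the fit and is used below only for comparison. The treatment and dose fields of the clinical libraries name Beta-Ac at 0.125 mg/kg, and those of the BAC libraries name the combination at 0.25 mg/kg. The lung libraries of 3 of the same clinical fetuses (115, 120 and 126) name Celestone at 0.25 mg/kg, and the groups here follow the library names. Poly(A) RNA from whole snap-frozen hippocampus was sequenced, so that fewer cells of a type and less RNA per cell cannot be told apart.

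Betamethasone is a synthetic glucocorticoid that crosses the placenta and binds the glucocorticoid receptor NR3C1, a transcription factor that moves to the nucleus and induces or suppresses its target genes. The hippocampus is rich in both corticosteroid receptors, NR3C1 and the mineralocorticoid receptor NR3C2. In late gestation its pyramidal neurons extend axons and form synapses, granule neurons of the dentate gyrus are still being born, and astrocytes and oligodendrocytes mature. Antenatal corticosteroids are given to women at risk of preterm delivery to mature the fetal lung, and the comparison addresses which other effects they have on the developing brain.

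The clinical libraries held 19986554 to 25905897 counted reads (median 20935295) and the saline libraries 18280762 to 25862134 (median 25293757). Levels are given as CPM, a gene's reads as a share of the library's TMM-scaled total. Markers of hippocampal neurons were present in all 10 libraries: PROX1, of granule neurons, was at 20.3 to 43.5 CPM with saline and 42.0 to 62.7 CPM with the clinical drug, and WFS1, of CA1 neurons, at 73.5 to 109 and 79.5 to 109 CPM. Library CTL212 stood apart: the summed level of the choroid plexus markers, from the tissue that makes cerebrospinal fluid, was 3938 CPM there, against 67.2 to 123 CPM in the other 4 saline libraries and 59.1 to 78.3 CPM in the clinical libraries. Counts of calls and list medians are therefore given with and without CTL212, and a fold change from all 5 saline libraries has the value without CTL212 beside it where the gene could still be tested. Some genes are given without CTL212 alone. Library CTL092 was the shallowest of the saline libraries, and a block of 35 neighbouring gene identifiers with no symbol held 0.75% of its reads, against 7.37% to 8.71% in the other saline and 9.63% to 17.5% in the clinical libraries. The Y-linked DDX3Y was at 91.6 to 134 CPM in 3 saline libraries (CTL092, CTL101 and CTL113) and 1 clinical library (CEL115) and below 2 CPM in the rest. The sequencing runs named in the labels overlapped only partly between the groups: run1630 held CTL113, CEL115, CEL120 and CEL126, run0164 held CTL212, CEL238 and CEL245, and CTL092, CTL101 (run0024) and CTL209 (run0162) shared a run with no clinical library.

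**Figure D1:**
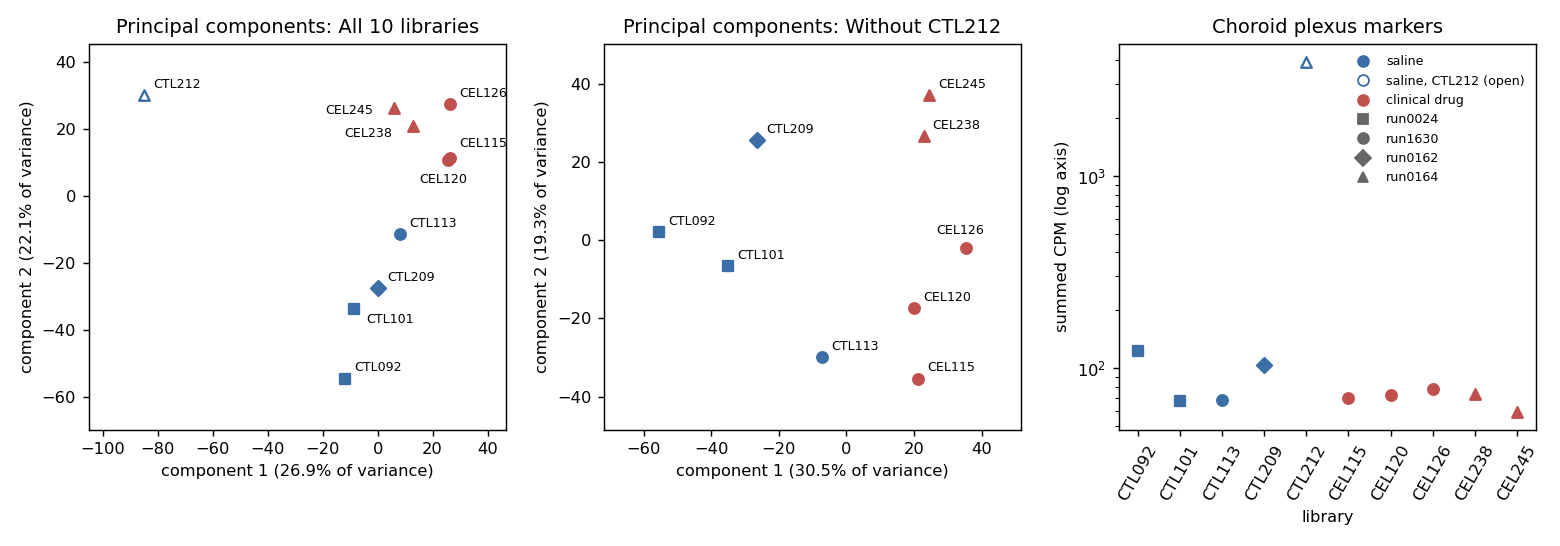
Principal components of log2 CPM over all 10 libraries (left) and without CTL212 (middle), and the summed CPM of the choroid plexus markers in each library on a log axis (right); colours mark the groups, symbols the sequencing runs, and the open symbol CTL212. CTL212 sits at -85.04 on component 1 and holds 3938 CPM of choroid plexus markers; without it the saline libraries lie between -55.4 and -7.17 and the clinical libraries between 20.1 and 35.3 on component 1.

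At 5 days the hippocampal transcriptome differed between clinical and saline fetuses, and more genes were lower than higher after the clinical drug. With all 5 saline libraries, 1366 of 17390 genes tested passed the threshold (7.86%), 435 of them higher (2.5%) and 931 lower (5.35%) after the clinical drug. Calls required a 1.5-fold difference or more, p below 0.05 and a Benjamini-Hochberg adjusted p below 0.1 in edgeR's quasi-likelihood test. Without CTL212, 1357 of 17300 genes were called (7.84%), 490 higher (2.83%) and 867 lower (5.01%). Both fits called 983 genes, 302 higher and 681 lower, which is 72% of the first set and 72.4% of the second, and each of the 983 changed in 1 direction in both. Most changes were moderate: among the called genes the median size was 0.76 on the log2 scale with all 5 saline libraries. Of these genes 319 changed by more than 2-fold, 74 of them higher, and without CTL212 it was 256, 91 of them higher.

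The libraries of the 2 groups also separated as whole profiles. The mean distance between a clinical and a saline library exceeded the mean distance within groups by 10.5 units of log2 CPM with all 10 libraries (exact permutation test over 252 splits, one-sided p = 0.00794) and by 12.6 units without CTL212 (126 splits, one-sided p = 0.00794). Each p is the smallest that its splits allow, since with all 10 libraries a split and its mirror give the same value. The splits exchanged libraries across sequencing runs, so this test takes no account of run. The clinical libraries had a mean distance of 73.4 to each other, the 4 saline libraries other than CTL212 of 76.8 and all 5 saline libraries of 91.8. Over the 500 most variable genes alone the separation did not pass the threshold (exact one-sided permutation p = 0.127 with all 10 libraries and 0.0794 without CTL212).

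The calls depended on which libraries shared a sequencing run. With the run as a block, 958 genes were called with all 5 saline libraries (137 higher and 821 lower), a fit in which CTL212 is 1 of the only 2 saline libraries in a run with clinical libraries, and 8 of the 16 leading genes described next kept their call. These were IRAG1 and CHRNB4 among the higher genes and NECAB2, ATP8A2, ATP5ME, CD99, ARHGAP18 and COL14A1 among the lower ones. Without CTL212 the run block left 0 calls in edgeR (2298 genes at an unadjusted p below 0.05, smallest adjusted p = 0.25). Only CTL113 then shared a run with clinical libraries, and run and treatment cannot be fully told apart. Grouping the libraries by the treatment field instead of their names also left 0 calls in edgeR (2133 genes at an unadjusted p below 0.05). That grouping sets the BAC libraries against saline, so it is the same fit as Beta-Ac against saline by name, given below.

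Of the genes called in both fits, 540 with a symbol and a mean of at least 1 CPM had every clinical library beyond every saline library, 75 higher and 465 lower, and the 8 with the largest change in each direction are described first. Over all genes tested, 5.07% had every clinical library above and 10% every clinical library below every saline library. The call of 15 of these 16 genes was kept with each of the 10 libraries left out in turn, and CD52 lost it without 5 of them (CTL092, CTL209, CEL115, CEL238 and CEL245). The genes were chosen by their calls in both fits, so this count is not independent of the choice. Without both CTL212 and CTL092, genes that lost the call included SPX, MKX, CDH19 and CD52 (adjusted p = 0.1285, 0.1464, 0.1028 and 0.1317). Library values are listed in the order CTL092, CTL101, CTL113, CTL209 and CTL212, then CEL115, CEL120, CEL126, CEL238 and CEL245. NEUROD1, a transcription factor that drives the differentiation of granule neurons, was measured at 42.7, 59.7, 83.2, 38.6 and 57.9 CPM with saline and 135, 117, 149, 124 and 115.1 CPM with the clinical drug. All clinical libraries lay above all saline libraries. Its log2 fold change was 1.18 (SE 0.30, adjusted p = 0.0242) with all 5 saline libraries and 1.19 (SE 0.33, adjusted p = 0.0331) without CTL212. With the run as a block NEUROD1 was not called, at 0.86 (adjusted p = 0.217), and 0.56 (adjusted p = 0.668) without CTL212. IRAG1, a substrate of the cyclic GMP-dependent kinase that restrains calcium release from the endoplasmic reticulum, was at 6.66, 11.3, 11.9, 5.43 and 14.1 CPM with saline and 23.3, 16.3, 34.7, 31.4 and 25.8 CPM with the clinical drug. It was higher by 1.41 (SE 0.27, adjusted p = 0.0138) on the log2 scale, and by 1.57 (SE 0.28, adjusted p = 0.0108) without CTL212. CHRNB4, a subunit of nicotinic acetylcholine receptors, was at 1.702, 2.22, 2.17, 0.635 and 1.72 CPM with saline and 4.67, 5.09, 3.08, 4.94 and 5.32 CPM with the clinical drug, and the lowest clinical library, CEL126, was still above the highest saline library. The change was 1.45 (SE 0.34, adjusted p = 0.019) with all 5 saline libraries and 1.46 (SE 0.38, adjusted p = 0.0255) without CTL212.

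SPX, which encodes the peptide hormone spexin, had the largest increase of these genes, at 0.2, 0.817, 1.00, 0.119 and 0.56 CPM with saline and 2.85, 1.13, 1.296, 2.06 and 2.53 CPM with the clinical drug. Its log2 fold change was 1.85 (SE 0.52, adjusted p = 0.0322), and 1.85 (SE 0.57, adjusted p = 0.046) without CTL212, and the highest saline library, CTL113, was just below the lowest clinical library, CEL120. MKX, a homeobox factor of connective tissue, was at 1.52 to 5.17 CPM with saline and 5.92 to 7.96 CPM with the clinical drug (log2 fold change 1.42, and 1.26, SE 0.40, adjusted p = 0.0505, without CTL212). CDH19, a cadherin of glial precursors, was at 0.4 to 0.922 CPM with saline and 1.14 to 2.11 CPM with the clinical drug (log2 fold change 1.29, and 1.47, SE 0.41, adjusted p = 0.0342, without CTL212). CYTIP, a gene of white blood cells, was at 0.851 to 1.60 CPM with saline and 2.31 to 4.65 CPM with the clinical drug (log2 fold change 1.37, and 1.36, adjusted p = 0.0181, without CTL212). CD52, a surface glycoprotein of lymphocytes, was at 1.05 to 4.24 CPM with saline and 4.32 to 6.998 CPM with the clinical drug (log2 fold change 1.05, and 1.20, adjusted p = 0.0499, without CTL212). With the run as a block none of SPX, MKX, CDH19, CYTIP and CD52 was called, and their log2 fold changes were 1.32, 1.14, 0.64, 1.18 and 0.65 with all 5 saline libraries. Without CTL212 they were 0.82, 0.41, 0.93, 0.92 and 0.68 in the same order.

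Among the 8 lower genes, NECAB2, ATP8A2, ATP5ME and CALB2 had levels above 10 CPM in every saline library, and ATP8A2 had the smallest decrease of the 8. NECAB2, a neuronal calcium-binding protein, was at 42.6, 27.7, 30.3, 32.05 and 20.5 CPM with saline and 11.1, 8.49, 9.31, 12.9 and 11.5 CPM with the clinical drug. Every clinical library was below every saline library. This gave a log2 fold change of -1.52 (SE 0.27, adjusted p = 0.0138), and -1.64 (SE 0.27, adjusted p = 0.00981) without CTL212. ATP8A2, a neuronal flippase that moves phospholipids between the leaflets of the membrane, was at 87.1, 93.0, 76.3, 78.5 and 57.3 CPM with saline and 45.4, 44.2, 25.9, 27.0 and 19.9 CPM with the clinical drug. The 2 highest clinical libraries, CEL115 and CEL120, stayed below the lowest saline library, CTL212. The difference was -1.27 (SE 0.28, adjusted p = 0.0169), and -1.37 (SE 0.29, adjusted p = 0.0151) without CTL212. ATP5ME, a subunit of the mitochondrial ATP synthase, was at 29.8, 22.0, 29.2, 30.9 and 22.6 CPM with saline and 7.86, 10.2, 10.5, 11.8 and 11.6 CPM with the clinical drug. Its groups did not overlap, with a log2 fold change of -1.37 (SE 0.32, adjusted p = 0.0187), and -1.43 (SE 0.34, adjusted p = 0.0199) without CTL212. CALB2 encodes calretinin, a calcium-binding protein of interneurons and immature granule neurons, and was at 35.3, 16.5, 12.8, 15.3 and 17.3 CPM with saline and 5.70, 6.33, 5.26, 8.75 and 8.88 CPM with the clinical drug. The saline library CTL092 was high. On the log2 scale the change was -1.48 (SE 0.34, adjusted p = 0.0175), -1.51 (SE 0.36, adjusted p = 0.0193) without CTL212, and -1.09 (adjusted p = 0.0744) without CTL212 and CTL092.

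CD99, a surface glycoprotein of leukocyte migration, was at 8.21, 6.65, 4.17, 4.44 and 9.56 CPM with saline and 0.983, 1.96, 1.34, 2.89 and 2.74 CPM with the clinical drug (log2 fold change -1.74, and -1.56, SE 0.41, adjusted p = 0.026, without CTL212). ARHGAP18, which inactivates the small GTPase RhoA, was at 24.9, 9.76, 10.5, 18.6 and 38.7 CPM with saline and 6.68, 5.56, 6.32, 4.68 and 6.81 CPM with the clinical drug. CTL212 was the highest saline library for ARHGAP18 and for the fibril-associated collagen COL14A1, and without it their log2 fold changes moved from -1.77 and -1.77 to -1.41 (adjusted p = 0.0134) and -1.41 (adjusted p = 0.0361). VWA5B1 was at 1.92 to 6.91 CPM with saline and 1.03 to 1.66 CPM with the clinical drug, and its saline values were spread widely (log2 fold change -1.60, and -1.38, SE 0.43, adjusted p = 0.0502, without CTL212).

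**Figure D2:**
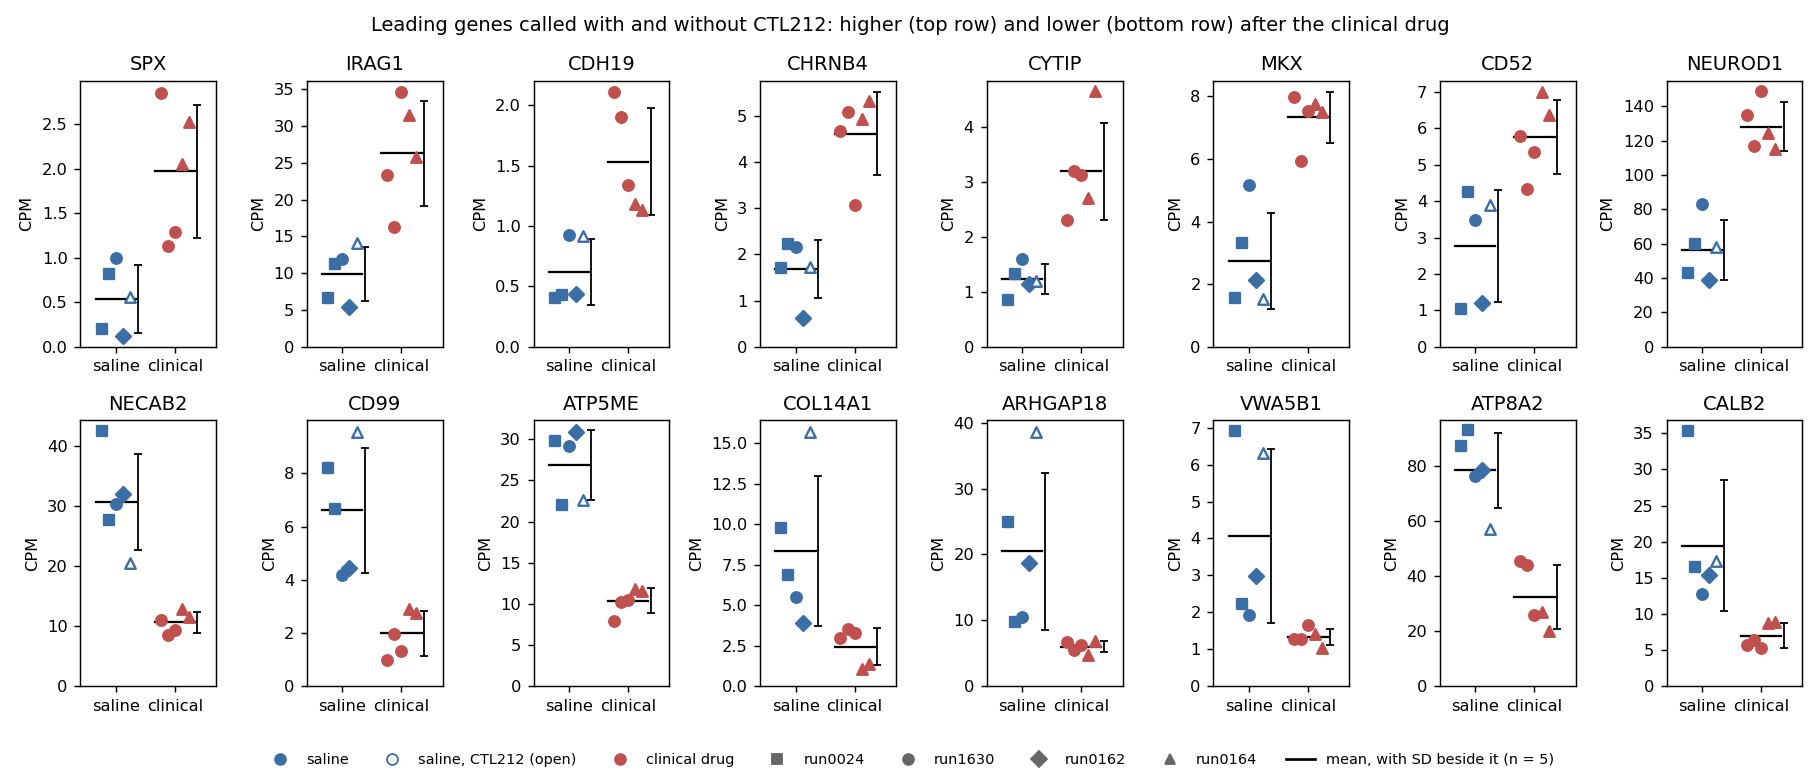
CPM in each library of the 8 genes with the largest increase (top) and the 8 with the largest decrease (bottom) among genes called in both fits; horizontal bars are means and vertical bars SD (n = 5 per group), symbols mark the sequencing run and the open symbol CTL212. NEUROD1 lies at 115.1 to 149 CPM after the clinical drug and 38.6 to 83.2 CPM after saline, and NECAB2 at 8.49 to 12.9 and 20.5 to 42.6 CPM.

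Several genes of mitochondrial oxidative phosphorylation, which supplies most of the ATP of neurons, fell. Of 41 tested genes of the respiratory chain and ATP synthase, 8 fell and 0 rose in edgeR with all 5 saline libraries, and the same was counted without CTL212, with a median log2 fold change of -0.23 and -0.19 over the 41. Over all genes tested the median was -0.02 and 0.02. With all 5 saline libraries 5.35% of all genes tested were called lower and 2.5% higher. Without CTL212 these shares were 5.01% and 2.83%, and the list counts below stand against the same shares. The 8 called of the 41 were NDUFA10, NDUFS1, NDUFS4, NDUFS6 and NDUFS7 of complex I, UQCRC1 of complex III, COX5A of complex IV and ATP5F1C of the ATP synthase. The list is partial: ATP5ME of the ATP synthase, described above, also fell in both fits but was not among the 41. UQCRC1 was at 148, 143, 143, 141 and 133 CPM with saline and 90.8, 83.6, 94.0, 91.6 and 85.4 CPM with the clinical drug. The groups did not overlap. Its log2 fold change was -0.67 (SE 0.16, adjusted p = 0.0195), and -0.69 (SE 0.17, adjusted p = 0.0222) without CTL212. ATP5F1C, a subunit of the rotating stalk, was at 76.4, 65.5, 70.3, 67.2 and 67.4 CPM with saline and 43.2, 37.7, 40.7, 45.2 and 43.7 CPM with the clinical drug, again with no overlap (log2 fold change -0.73, SE 0.19, adjusted p = 0.0241, without CTL212). NDUFS6 was at 25.3, 23.2, 24.7, 24.9 and 25.4 CPM with saline and 12.1, 12.5, 13.5, 17.7 and 16.5 CPM with the clinical drug, and CEL238 and CEL245 were its highest clinical libraries (log2 fold change -0.76, SE 0.25, adjusted p = 0.0576, without CTL212). In each of the 8 genes every clinical library was below every saline library. The same was true of 13 of the 41 genes, against 10% of all genes tested. In 2 of the 41 every clinical library was above every saline library, against 5.07% of all genes tested.

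Some genes that shape axons and dendrites also fell. Of 42 tested genes of neuron projection and the cytoskeleton, 4 fell and 0 rose with all 5 saline libraries and 7 fell and 0 rose without CTL212 (median log2 fold change -0.18 and -0.25). PAK1, a kinase that acts on actin downstream of the GTPases RAC1 and CDC42, was at 101, 87.0, 72.1, 73.9 and 60.8 CPM with saline and 58.3, 48.0, 37.9, 42.2 and 40.2 CPM with the clinical drug. Its log2 fold change was -0.80 (SE 0.15, adjusted p = 0.0138), and -0.88 (SE 0.15, adjusted p = 0.00981) without CTL212. CHL1, a cell adhesion molecule of growing axons, was at 459.9, 507, 407, 503 and 298 CPM with saline and 296, 288, 243, 223 and 237.3 CPM with the clinical drug. The decrease was -0.76 (SE 0.17, adjusted p = 0.0171) on the log2 scale, and -0.87 (SE 0.16, adjusted p = 0.0108) without CTL212, and CTL212 was the lowest saline library. ABLIM1, an actin-binding protein, and PAK3 fell in both fits (log2 fold change without CTL212 -0.76 and -0.85), and NFASC, TRIO and CDK5 were called only without CTL212 (-0.60, -0.61 and -0.65). NFASC and TRIO had log2 fold changes of -0.52 and -0.55 with all 5 saline libraries, short of the fold threshold of 0.585.

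Axon guidance molecules, which steer growth cones, had the largest number of members called without CTL212, among lists of unequal size. Of these calls 3 rested on CTL209, as given below. Of 38 tested ligands and receptors of the netrin, slit, ephrin and reelin systems, 6 fell and 1 rose with all 5 saline libraries, and 9 fell and 0 rose without CTL212, with a median log2 fold change of -0.26 and -0.28. Among the ligands, SLIT1 was at 223, 200.3, 144, 200.3 and 161 CPM with saline and 104, 117, 102, 87.5 and 70.0 CPM with the clinical drug. No library of one group reached the other. This gave a log2 fold change of -0.95 (SE 0.22, adjusted p = 0.0187), and -1.0 (SE 0.24, adjusted p = 0.0194) without CTL212. SLIT3 was at 88.9, 91.7, 88.0, 125.8 and 60.7 CPM with saline and 53.9, 53.3, 56.2, 58.9 and 44.2 CPM with the clinical drug (log2 fold change -0.89, SE 0.21, adjusted p = 0.0183, without CTL212). RELN, the secreted protein that positions migrating neurons, was at 422, 518, 645, 429 and 358 CPM with saline and 318, 323, 189, 313 and 230.1 CPM with the clinical drug. Its decrease was -0.79 (SE 0.23, adjusted p = 0.0373), and -0.87 (SE 0.24, adjusted p = 0.0289) without CTL212. LRP8, a receptor for reelin, was called only without CTL212 (log2 fold change -0.59, adjusted p = 0.0514). SLIT2 and the ephrin ligand EFNA5 were also called without CTL212, but their saline values rested on 1 library: CTL209 had 269 CPM of SLIT2 and 14.6 CPM of EFNA5, against 90.1 to 125 and 3.33 to 5.21 CPM in the other saline libraries. The netrin receptor UNC5D, called only without CTL212, was at 27.3, 16.6, 14.7, 54.9 and 14.6 CPM with saline, again highest in CTL209. Without CTL212 and CTL209 none of these 3 was called, at log2 fold changes of -0.90 (EFNA5, adjusted p = 0.28), -0.39 (SLIT2, adjusted p = 0.298) and -0.80 (UNC5D, adjusted p = 0.328). UNC5C and EFNB2 fell in both fits (-0.81 and -0.90 without CTL212), and the ephrin receptor EPHA5 rose with all 5 saline libraries (log2 fold change 0.74, adjusted p = 0.0906) and was not called without CTL212 (0.64, adjusted p = 0.16). Of 31 semaphorins, plexins and neuropilins, 0 were called with all 5 saline libraries in edgeR and 1, the receptor PLXNC1, fell without CTL212 (log2 fold change -0.68, adjusted p = 0.0154).

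At the synapse, a few genes of transmitter release fell. Of 41 tested presynaptic genes, 5 fell and 0 rose in either fit (median log2 fold change -0.15, and -0.24 without CTL212). SYN1, which tethers synaptic vesicles, was at 189.9, 202, 148, 216 and 164 CPM with saline and 89.4, 96.8, 87.6, 136 and 117 CPM with the clinical drug. STX1A, a plasma membrane SNARE of vesicle fusion, was at 81.0, 91.0, 74.2, 69.4 and 62.7 CPM with saline and 49.4, 52.7, 45.5, 46.3 and 41.9 CPM with the clinical drug. DNM1, the dynamin that retrieves vesicles, was at 547, 521, 533, 625 and 398 CPM with saline and 306, 335, 312, 382 and 318 CPM with the clinical drug. In all 3 genes the groups did not overlap. These 3 of the 41 had every clinical library below every saline library, against 10% of all genes tested. Above every saline library it was 0 of the 41, against 5.07% of all genes tested. The log2 fold changes of the 3 were -0.80 (SE 0.20, adjusted p = 0.0232), -0.68 (SE 0.14, adjusted p = 0.0138) and -0.67 (SE 0.14, adjusted p = 0.0143) with all 5 saline libraries. Without CTL212 they were -0.84 (adjusted p = 0.0245), -0.74 (adjusted p = 0.0117) and -0.75 (adjusted p = 0.0102). RIMS2 and ERC1 of the active zone also fell, with log2 fold changes of -0.89 (adjusted p = 0.0479) and -0.69 (adjusted p = 0.031) without CTL212, and libraries of both groups overlapped in RIMS2. The call of RIMS2 with all 5 saline libraries was lost without any 1 of CTL092, CTL101, CTL209, CEL126, CEL238 or CEL245. On the receiving side, of 42 tested glutamate receptor and postsynaptic density genes 2 fell with all 5 saline libraries (GRM8 and DLG2) and 1 without CTL212 (DLG2, log2 fold change -0.85, adjusted p = 0.0195). Of 18 GABA receptor and inhibitory synapse genes 1 fell with all 5 saline libraries, the receptor subunit GABRA3, and 2 without CTL212, GABRA3 (-1.03, adjusted p = 0.0179) and GABRG3 (-0.82, adjusted p = 0.089).

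Interneuron genes had the second lowest median of the lists without CTL212, -0.46 over 19 tested genes, and -0.31 with all 5 saline libraries. The median was -0.22 in run1630 and -0.18 with the run as a block without CTL212. Their summed level was 1283 and 1443 CPM in CTL092 and CTL209, which shared a run with no clinical library, 756 to 987 CPM in the other saline libraries and 709.9 to 966 CPM in the clinical libraries. In that list 2 genes fell with all 5 saline libraries and 4 without CTL212: CALB2, the neuregulin receptor ERBB4 (-0.75, adjusted p = 0.0243), the neuropeptide NPY (-0.61, adjusted p = 0.0431) and the neuropeptide CCK (-0.70, adjusted p = 0.0661), the last also made by pyramidal neurons. ERBB4 was at 9.06, 8.98, 10.9, 15.7 and 11.1 CPM with saline and 6.59, 8.08, 6.56, 6.39 and 5.68 CPM with the clinical drug. The GABA-synthesising enzymes GAD1 and GAD2 were not called, at log2 fold changes of -0.55 (adjusted p = 0.0732) and 0.00 (adjusted p = 0.997), nor was the neuropeptide SST (-0.53, adjusted p = 0.0419). GAD1 and SST were lower and missed only the fold threshold of 0.585. Of 16 tested markers of hippocampal excitatory neurons 0 were called without CTL212 in edgeR and 1, CUX2, fell with all 5 saline libraries. PROX1 had a log2 fold change of 0.68 (adjusted p = 0.24). Of 8 tested markers of the striatum, a neighbouring forebrain region, RGS9 and SIX3 fell in both fits, and the summed level of the list was 129.7 to 222 CPM with saline and 103 to 137 CPM with the clinical drug. SIX3 was at 2.25, 0.156, 0.0401, 0.357 and 5.28 CPM with saline and 0.0983, 0, 0.0405, 0.0437 and 0.103 CPM with the clinical drug, with CTL092 and CTL212 alone above 1 CPM. Without both of these libraries SIX3 had too few reads to be tested.

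**Figure D3:**
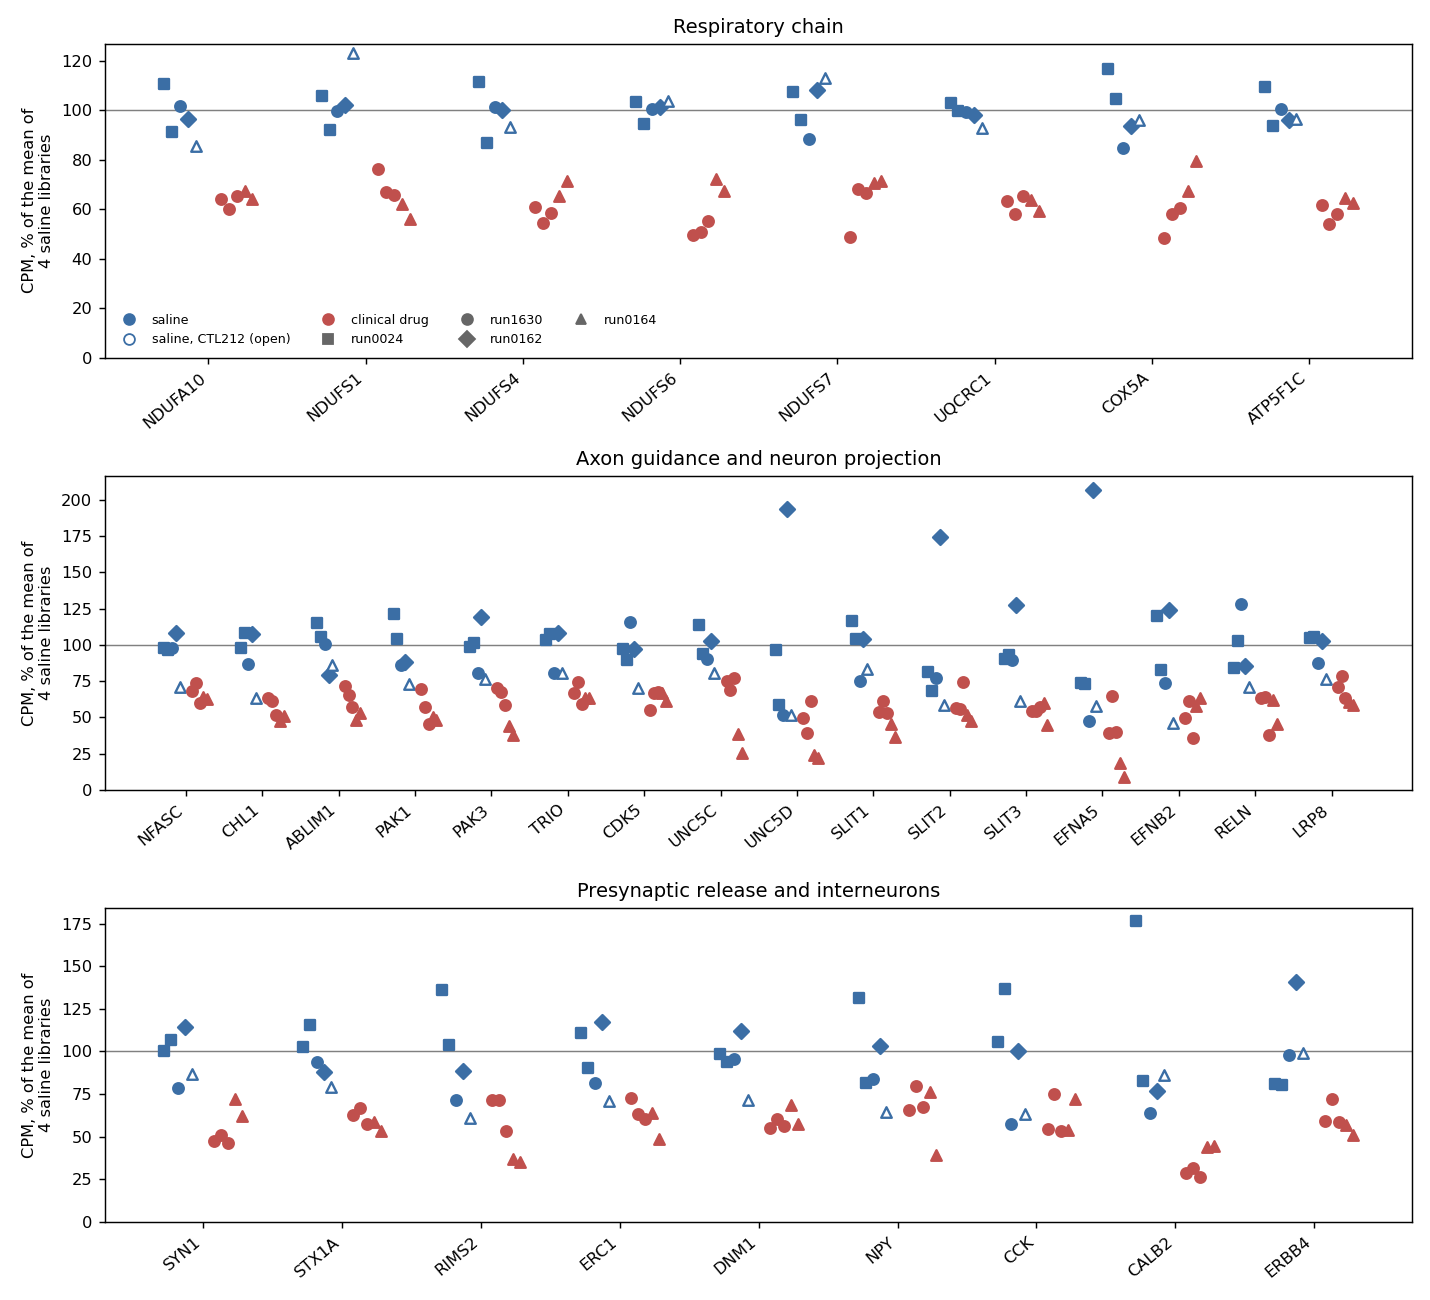
CPM of each member called without CTL212 as a percentage of the mean of the 4 saline libraries other than CTL212, for the respiratory chain (top), axon guidance and neuron projection (middle) and presynaptic release and interneuron genes (bottom). In the respiratory chain every clinical library lies below every saline library; in SLIT2, UNC5D and EFNA5 the saline library CTL209 lies far above the rest.

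Among progenitor and neurogenesis genes, the members called were higher. Of 23 tested, 2 rose and 0 fell with all 5 saline libraries, and 4 rose and 0 fell without CTL212, with a median log2 fold change of 0.20 and 0.21. Besides NEUROD1, NES, the intermediate filament of neural stem cells, was at 116, 176, 178, 119 and 190.1 CPM with saline and 211, 204, 298, 246 and 247 CPM with the clinical drug. Every clinical library lay above every saline library, with a log2 fold change of 0.63 (SE 0.21, adjusted p = 0.059), and 0.71 (SE 0.22, adjusted p = 0.0488) without CTL212. NEUROG2, a transcription factor that commits progenitors to the neuronal fate, and TFAP2C were called only without CTL212 (0.89, adjusted p = 0.0895 and 0.64, adjusted p = 0.0883). Of 36 cell cycle genes 2 rose and 0 fell with all 5 saline libraries, and 3 rose and 0 fell without CTL212 (CDK1, CDC6 and CCND1). The median over the 36 was -0.17 and -0.08. Every clinical library was below every saline library in 5 of the 36 and above in 1, against 10% and 5.07% of all genes tested. CDK1, the kinase of mitotic entry, was at 1.10, 0.933, 1.16, 1.03 and 1.32 CPM with saline and 2.998, 2.01, 1.94, 1.22 and 1.497 CPM with the clinical drug, and its call with all 5 saline libraries was lost without any 1 of 7 libraries (CTL092, CTL101, CTL113, CTL209, CEL115, CEL120 and CEL126).

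Some genes of astrocytes and microglia rose. Of 23 tested astrocyte genes 4 rose and 0 fell with all 5 saline libraries and 5 rose and 0 fell without CTL212 (median log2 fold change 0.23 and 0.25). AQP4, the water channel of astrocyte endfeet, was at 452, 443, 793, 607 and 434 CPM with saline and 1279, 896, 1162, 1039 and 833 CPM with the clinical drug. The lowest clinical library, CEL245, was above the highest saline library, CTL113. The difference was 0.93 (SE 0.23, adjusted p = 0.0225), and 0.86 (SE 0.25, adjusted p = 0.0362) without CTL212. GJB6, the gap junction protein connexin 30, was at 17.8, 21.8, 22.5, 14.7 and 16.4 CPM with saline and 37.1, 35.1, 41.7, 48.9 and 34.9 CPM with the clinical drug (log2 fold change 1.09, SE 0.22, adjusted p = 0.014, and 1.04, SE 0.24, adjusted p = 0.018, without CTL212). ID4 and SPARCL1 also rose in both fits (0.63 and 0.60 without CTL212), and the glutamate transporter SLC1A2 only without CTL212 (0.80, adjusted p = 0.0706). GFAP, the intermediate filament of astrocytes, was not called (log2 fold change 0.16, adjusted p = 0.75). The summed level of the astrocyte markers was 7164 to 10519 CPM with saline and 9049 to 11559 CPM with the clinical drug, and CTL113 was the highest saline library. In run1630, which holds CTL113, the median over the astrocyte genes was -0.14.

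Of 19 tested microglial genes 4 rose and 1 fell with all 5 saline libraries, and 5 rose and 0 fell without CTL212 (median log2 fold change 0.29 and 0.38). In run1630 the median over the microglial genes was 0.15, and with the run as a block without CTL212 it was 0.06. GPR34, a microglial receptor, was at 9.96, 7.47, 17.8, 10.8 and 10.6 CPM with saline and 18.7, 24.4, 23.4, 14.5 and 30.9 CPM with the clinical drug, and CTL113 overlapped the clinical libraries (log2 fold change 0.96, SE 0.26, adjusted p = 0.0288, without CTL212, and 0.32 in run1630). C1QC, a chain of complement C1q, was at 11.8, 11.6, 16.3, 9.64 and 15.0 CPM with saline and 21.5, 21.1, 19.2, 17.2 and 27.1 CPM with the clinical drug, with no overlap (log2 fold change 0.78, SE 0.22, adjusted p = 0.0322, without CTL212). The purine receptors P2RY12 and P2RY13 rose in both fits (0.79 and 0.76 without CTL212) and LAPTM5 only without CTL212 (0.61, adjusted p = 0.0604). The receptor CSF1R was not called (0.04, adjusted p = 0.94). In the oligodendrocyte list 1 of 19 genes rose in either fit, GPR17, a receptor of committed precursors, at 63.6, 56.5, 63.7, 47.3 and 57.7 CPM with saline and 78.6, 98.0, 69.3, 92.1 and 102 CPM with the clinical drug (log2 fold change 0.61, SE 0.15, adjusted p = 0.0218, and 0.61, SE 0.16, adjusted p = 0.0292, without CTL212). The myelin gene MBP was not called (-0.12, adjusted p = 0.882).

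The number of calls among vessel, meningeal and choroid plexus genes depended on CTL212. Of 13 choroid plexus markers 9 fell with all 5 saline libraries, among them CLIC6, at 1.301, 0.272, 0.401, 0.0793 and 421 CPM with saline and 0.0491, 0.36, 0.567, 0.219 and 0.206 CPM with the clinical drug, and WFIKKN2, at 15.9, 14.5, 17.9, 7.06 and 1579.5 CPM with saline and 10.7, 12.5, 18.2, 14.5 and 12.8 CPM with the clinical drug. Without CTL212 neither was called, at log2 fold changes of -0.79 (adjusted p = 0.631) and -0.01 (adjusted p = 0.993). Of the 12 markers then tested 1 rose, KL, the co-receptor klotho (0.71, adjusted p = 0.0503), and 1 fell, the bicarbonate transporter SLC4A5 (-0.62, adjusted p = 0.0902). Of 12 meningeal and fibroblast genes 4 fell with all 5 saline libraries, COL1A1, COL1A2, COL3A1 and the proteoglycan DCN, and 1 without CTL212, DCN, at 59.0, 86.6, 55.3, 69.4 and 114.7 CPM with saline and 56.4, 38.5, 19.2, 29.2 and 28.3 CPM with the clinical drug (log2 fold change -0.98, SE 0.37, adjusted p = 0.0934). Over the meningeal and fibroblast genes the median log2 fold change was -1.12 with all 5 saline libraries and -0.83 without CTL212. It was -0.095 in run1630 and -0.27 with the run as a block without CTL212. The summed level of these 12 was 135 to 1203 CPM with saline and 107 to 369 CPM with the clinical drug, with CTL212 the highest of the 10, and none of the 12 was at 0 in every library of a group. The part of meninges, choroid plexus or striatum in the other results was not tested. Of 21 endothelial genes 2 fell with all 5 saline libraries (VWF and EMCN) and 0 without CTL212 in edgeR. Pericyte (9 tested), ependymal (12), blood (5), thalamic (7) and hypothalamic (4) lists had 0 calls in either fit.

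Some calls existed in only 1 of the fits. With all 5 saline libraries alone, 383 genes were called. The largest decreases among them were CLIC6, the copper oxidase CP (log2 fold change -7.57, SE 1.96, adjusted p = 0.0249, and -0.46, adjusted p = 0.61, without CTL212) and the neuropeptide NPVF (-7.41, SE 2.03, adjusted p = 0.0302), which had too few reads to be tested without CTL212. CP was at 308 and NPVF at 162 CPM in CTL212, and all 3 were at or below 1.301 CPM in every other saline and clinical library. The largest increases were KCNK17, FCRL6 and KLHL14, all at low levels. The potassium channel KCNK17 was at 0, 0.618, 3.77, 0.262 and 4.39 CPM in the clinical libraries, above 1 CPM only in CEL126 and CEL245, and its log2 fold change was 2.52 (SE 0.94, adjusted p = 0.0847), and 2.58 (adjusted p = 0.111) without CTL212. The call of KCNK17 was lost without any 1 of 7 libraries (CTL092, CTL101, CTL113, CTL209, CTL212, CEL126 and CEL245). Without CTL212 alone, 374 genes were called, led by the histone H2BC11 (1.17, SE 0.29, adjusted p = 0.0212), the immune receptor CD48 (1.16, SE 0.29, adjusted p = 0.0239) and TMCO4 (0.99, SE 0.32, adjusted p = 0.057) among the higher. The lower ones were led by TNIP3 (-1.21, SE 0.37, adjusted p = 0.0453), DEPTOR, an inhibitor of the kinase mTOR (-1.05, SE 0.34, adjusted p = 0.0538), and KLHL40 (-0.97, SE 0.28, adjusted p = 0.0382).

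The corticosteroid receptors were not called, and of the usual glucocorticoid targets 1 was. NR3C1 was at 23.9, 21.4, 26.3, 20.1 and 27.6 CPM with saline and 28.3, 28.5, 21.2, 22.3 and 22.2 CPM with the clinical drug, and NR3C2 at 47.3, 42.5, 51.1, 53.5 and 44.3 CPM with saline and 60.3, 46.6, 57.1, 56.4 and 45.7 CPM with the clinical drug. Their log2 fold changes were 0.04 (SE 0.17, adjusted p = 0.904) and 0.16 (SE 0.21, adjusted p = 0.65), and 0.09 (adjusted p = 0.763) and 0.13 (adjusted p = 0.744) without CTL212. Of 12 tested genes of the receptor complex and cortisol metabolism 0 were called in either fit in edgeR, HSD11B2, which inactivates cortisol, being at 0.397 to 1.44 and 0.437 to 0.972 CPM. Of 24 tested glucocorticoid targets 0 rose and 1 fell in both fits, the cell cycle inhibitor CDKN1C, at 12.3, 15.5, 9.34, 29.4 and 12.4 CPM with saline and 6.19, 8.90, 10.3, 9.97 and 9.09 CPM with the clinical drug (log2 fold change -0.83, SE 0.29, adjusted p = 0.072, and -0.90, SE 0.31, adjusted p = 0.0663, without CTL212). Without CTL212 and CTL209 CDKN1C was not called (log2 fold change -0.46, adjusted p = 0.288). FKBP5, the co-chaperone that limits receptor activity, was at 3.003, 4.12, 5.09, 3.49 and 4.96 CPM with saline and 3.24, 2.26, 3.40, 3.32 and 4.18 CPM with the clinical drug (log2 fold change -0.33, SE 0.25, adjusted p = 0.388, and -0.26, adjusted p = 0.544, without CTL212). SGK1, ZBTB16 and PER1 had log2 fold changes of -0.04 (adjusted p = 0.884), 0.00 (adjusted p = 0.992) and -0.41 (adjusted p = 0.0513) with all 5 saline libraries, and -0.02 (adjusted p = 0.941), -0.07 (adjusted p = 0.884) and -0.32 (adjusted p = 0.106) without CTL212. PER1, a clock gene, missed the fold threshold in both fits, and its adjusted p was below 0.1 only with all 5 saline libraries.

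Of 15 tested apoptosis genes 0 were called in either fit in edgeR, and their median log2 fold change was -0.01, and -0.05 without CTL212. Among 21 trophic factors and receptors 2 fell and 0 rose with all 5 saline libraries, and 1 fell and 0 rose without CTL212. NTRK2, the receptor of brain-derived neurotrophic factor, fell in both fits, at 35.4, 30.1, 19.0, 36.1 and 14.6 CPM with saline and 19.1, 19.2, 12.8, 12.4 and 12.6 CPM with the clinical drug. On the log2 scale the change was -0.83 (SE 0.28, adjusted p = 0.0617), and -0.99 (SE 0.26, adjusted p = 0.0267) without CTL212, and the call with all 5 saline libraries was lost without any 1 of CTL092, CTL101, CTL209, CEL126, CEL238 or CEL245. Of 18 cholesterol genes 1 fell with all 5 saline libraries and 2 without CTL212: CYP46A1, the neuronal enzyme that makes 24-hydroxycholesterol (-0.80, adjusted p = 0.0142), and the mevalonate pathway enzyme MVD (-0.59, adjusted p = 0.0439). CYP46A1 was at 56.5, 51.9, 46.5, 60.5 and 33.6 CPM with saline and 25.1, 31.96, 27.5, 35.7 and 33.9 CPM with the clinical drug, and CTL212 alone of the saline libraries lay within the clinical range. Of 12 stress and hypoxia genes PDK1, a kinase that inhibits pyruvate dehydrogenase, fell in both fits. It was at 5.21, 3.58, 3.65, 4.40 and 4.202 CPM with saline and 2.36, 2.21, 2.88, 2.27 and 2.17 CPM with the clinical drug (log2 fold change -0.82, SE 0.19, adjusted p = 0.0186, and -0.82, adjusted p = 0.0232, without CTL212). In the interferon list of 13, 0 rose and 1 fell with all 5 saline libraries, and 1 rose and 0 fell without CTL212. The gene that rose was IFIT1 (0.59, adjusted p = 0.0788), a call lost without any 1 of 7 further libraries. In the immediate early list of 13, EGR2 rose only with all 5 saline libraries (0.86, adjusted p = 0.0652, and 0.78, adjusted p = 0.11, without CTL212).

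**Figure D4:**
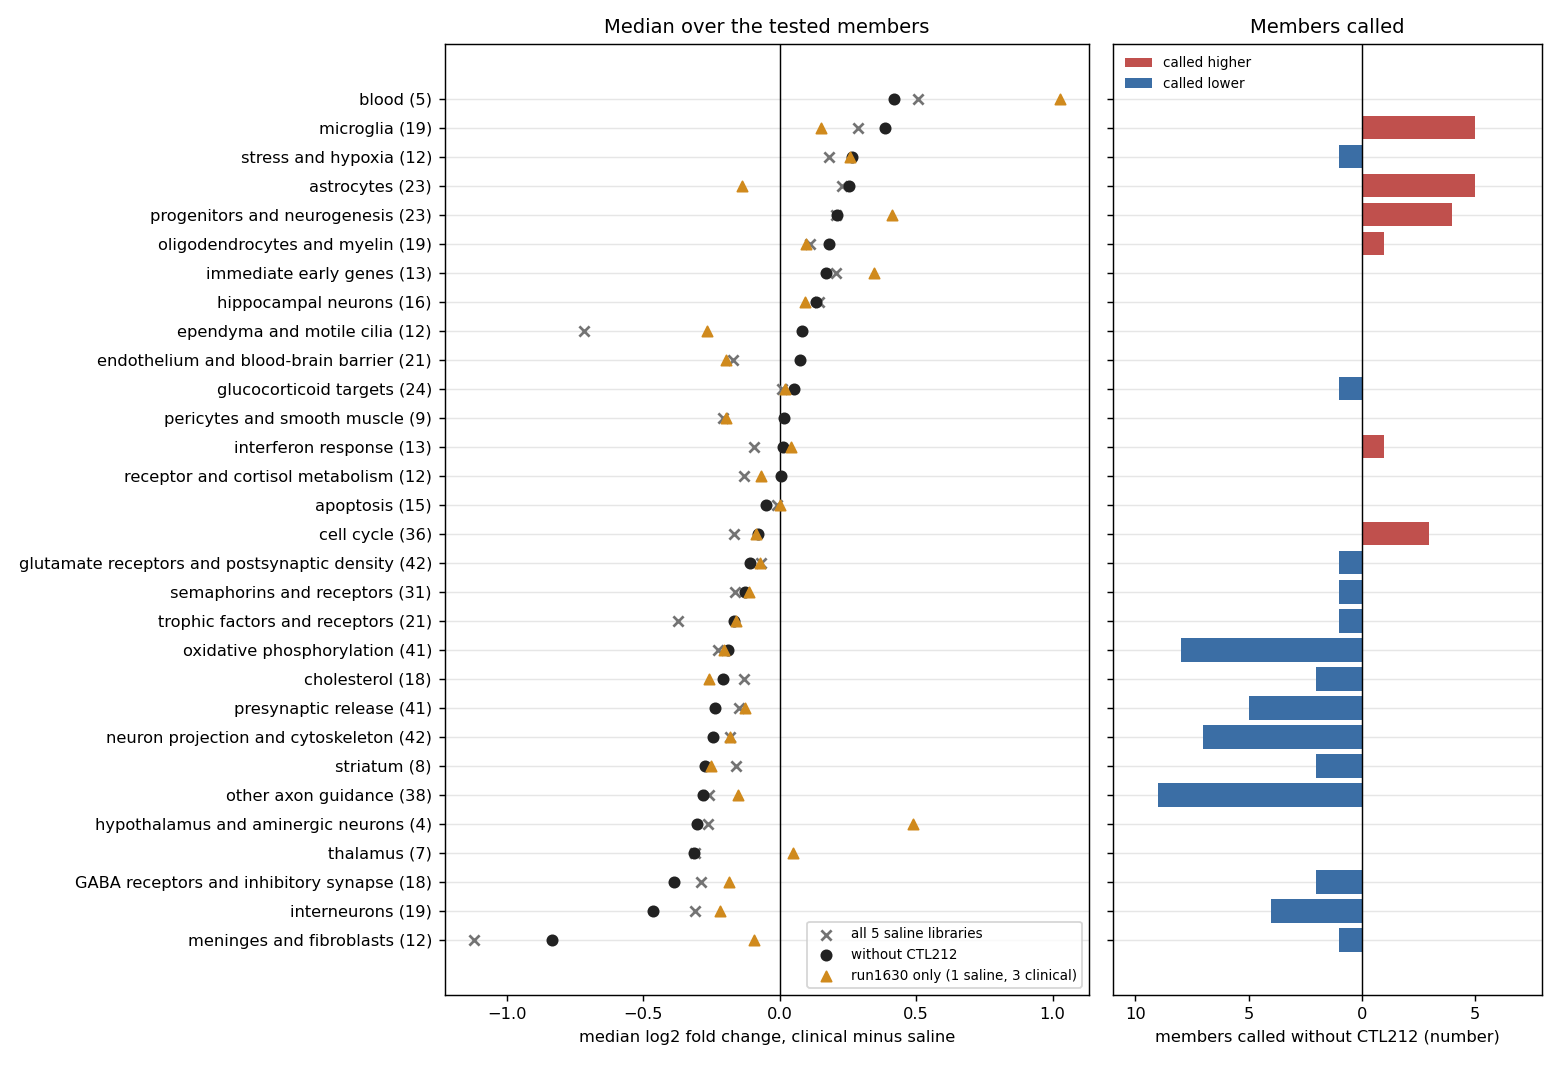
Median log2 fold change, clinical minus saline, over the tested members of each gene list except choroid plexus (left) and the number of members called higher or lower without CTL212 (right); the number tested without CTL212 follows each name. Interneuron (-0.46) and meningeal (-0.83) genes have the lowest medians without CTL212, and the astrocyte median is 0.25 without CTL212 and -0.14 in run1630.

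Within run1630, 3 clinical libraries could be set against the single saline library CTL113, which was assumed to vary like the other groups. There 1 gene, with no symbol, was called in edgeR, and 1421 genes had an unadjusted p below 0.05. Of the 1357 genes called without CTL212, 1307 could be tested in that run and 1288 of them (98.5%) had the same direction there, 460 at an unadjusted p below 0.05, with a median size of 0.56 against 0.75 over all runs. These libraries are part of the larger comparison, so the count is not an independent one. Examples chosen after their values were seen with a change in the run of at least that over all runs were NECAB2 (-1.66, SE 0.44), ATP5ME (-1.62, SE 0.48), RELN (-1.23, SE 0.32) and NDUFS6 (-0.96, SE 0.31), given as log2 fold changes. Small within the run, also chosen after their values were seen, were EFNA5 (0.02, SE 0.47), RIMS2 (-0.13, SE 0.20), NTRK2 (-0.16, SE 0.33), CDKN1C (-0.14, SE 0.47) and SPARCL1 (-0.12, SE 0.17). NEUROD1 was at 0.68 (SE 0.51). CTL113 was the highest saline library for both NEUROD1 and RELN.

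Set beside Beta-Ac, given at 0.125 mg/kg and thus at another dose, the clinical drug had 0 genes that passed the threshold in edgeR (2346 at an unadjusted p below 0.05, smallest adjusted p = 0.208) and 186 in DESeq2. Beta-Ac against saline, the same fit as the grouping by the treatment field, had 0 calls in edgeR (2133 at an unadjusted p below 0.05). Both drugs were compared with the same saline libraries, and the genes given here were chosen after their values were seen. NECAB2 was at 25.4, 18.4, 9.03, 28.9 and 29.8 CPM in BAC128, BAC130, BAC136, BAC235 and BAC237, and only BAC136 lay within the clinical range. Its difference between the drugs, clinical minus Beta-Ac, was -1.07 on the log2 scale (95% interval -1.65 to -0.48, adjusted p = 0.209). ATP5ME was at 27.5, 10.3, 11.2, 43.4 and 34.3 CPM in the same order, in the clinical range in BAC130 and BAC136 and in or above the saline range in the rest (difference -1.28, 95% interval -1.99 to -0.58, adjusted p = 0.209). GPR17 was at 51.2, 31.0, 53.4, 50.4 and 54.5 CPM, below every clinical library, and was not called either (difference 0.87, 95% interval 0.54 to 1.20, adjusted p = 0.208). For NEUROD1, at 103, 35.0, 95.4, 159 and 61.9 CPM, the difference was 0.49 with a 95% interval of -0.16 to 1.15, and for ATP8A2, at 64.4, 31.2, 22.5, 28.7 and 52.7 CPM, it was -0.30 with an interval of -0.91 to 0.31. A p that missed the threshold does not show that the drugs act alike, and these intervals include differences over 2-fold for NEUROD1.

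**Figure D5:**
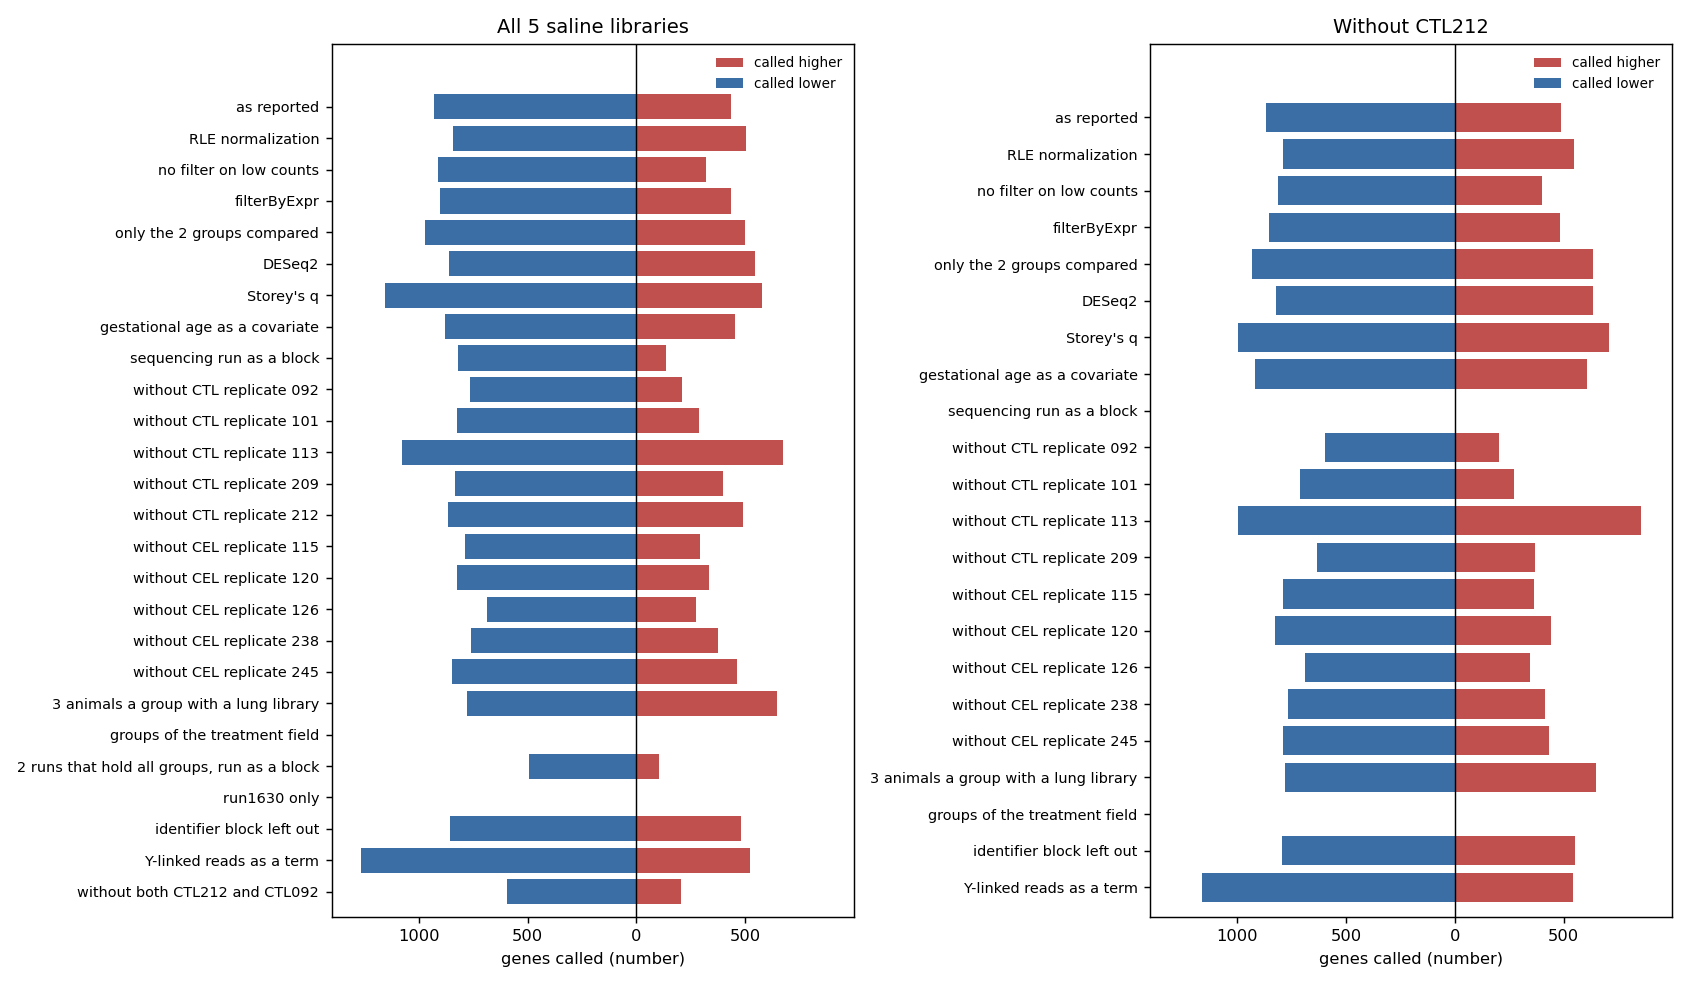
Number of genes called higher (right of 0) and lower (left of 0) after the clinical drug under each setting tried, with all 5 saline libraries (left) and without CTL212 (right). The count is 1366 and 1357 as reported, 958 and 0 with the sequencing run as a block, and 0 in both with the groups of the treatment field, which set the BAC libraries against saline.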

How the data were processed

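RNA was extracted with Trizol, and poly(A) libraries were sequenced as 75 bp paired-end reads. Per the submitters' processing notes, the authors used Bowtie2, featureCounts and edgeR, and the study's methods, written for lung RNA, name the rhesus build MMUL1.0. The deposited values were raw read counts per Ensembl gene identifier, from a table of 15 hippocampus libraries with 32386 identifiers, of which 54.4% could be given a symbol. Names of the libraries set the groups, since the treatment and dose fields exchange the drugs. Total counts per library (18280762 to 25905897 in the 10 compared) limit the precision of genes with few reads. A minimum of 7 reads in 5 or more libraries was required of a gene, and testing used edgeR 4.0.16 (limma 3.58.1, R 4.3.3) with TMM normalization, all 3 groups in the fit, a quasi-likelihood F test and Benjamini-Hochberg adjustment. Calls were made at a fold of 1.5, p of 0.05 and adjusted p of 0.1. DESeq2 1.42.0 was an alternative. CPM values use TMM-scaled totals, and log2 CPM a prior count of 2. The test was checked on simulated data.

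No 2 libraries were closer than sampling noise allows (chi-square per degree of freedom between replicates from 13.7 upwards). The 56 genes named by rule were the 8 largest changes in each direction called in both fits with no overlap between groups and a mean of at least 1 CPM, the 3 largest in each direction called in 1 fit only, the called member of each gene list with the largest change without CTL212, 8 corticosteroid genes (HSD11B1 was not tested) and 3 choroid plexus markers; other list members are named as called members or for their role. A few list members counted in the text are not reported here by name. The members and lists were chosen with earlier results of these data known. Alternatives covered normalization, filter, tool, adjustment, fold threshold, gestational age, sequencing run, the groups of the treatment field, the 3 animals a group with a lung library, and each library left out. Leaving out the identifier block, a term for Y-linked reads and leaving out CTL092 with CTL212 were chosen after seeing the data.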

Additional observations from a re-analysis of the deposited data

Results flagged for a closer look

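In 22 of 140 groups of 5 libraries checked (15.7%), 1 library lay so far from the other 4 that its gap exceeded 0.71 of the group's range, the 95% critical value of Dixon's test. Chance puts about 1 in 20 groups past it, but many of the genes checked were named because CTL212 stands apart or because they were called in 1 fit only, so the share is a description. Of the 22, 11 were in CTL212. In that library CP was at 308 CPM, NPVF at 162, CLIC6 at 421, HTR2C at 474, KL at 182 and WFIKKN2 at 1580 (rounded to 3 digits), while the other saline libraries did not exceed 63.7 CPM in any of them. Its summed choroid plexus markers came to 3940 CPM (also rounded), its ependymal markers to 622 CPM against 158 to 174, and its pericyte markers to 410 CPM against 179 to 221. H2BC11 at 2.12 CPM and TMCO4 at 4.28 CPM were also highest there, against 0.642 to 0.933 and 0.45 to 0.561 CPM.

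CTL092 had the lowest total, 18300000 reads (rounded) against 23700000 or more, and 0.75% of reads in the block of neighbouring identifiers. Its CALB2 was at 35.3 CPM against 12.8 to 17.3, and its summed thalamic markers at 188 CPM against 88.7 to 113. EFNA5 was at 14.6 CPM in CTL209 against 3.33 to 5.21, and the summed blood markers at 15.7 CPM in CTL101 against 1.35 to 4.77. Among the clinical libraries, CEL126 was low for CHRNB4 (3.08 CPM) and high for PDK1 (2.88 CPM), CEL120 was low for MKX (5.92 CPM), CEL245 was high for CD48 (3.61 CPM), and CEL115 was high for the summed meningeal markers (369 CPM against 107 to 182).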

How the results depend on the processing

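With all 5 saline libraries the 1366 calls became 3816 with no fold threshold, 596 in the 2 runs that hold all groups with the run as a block (102 higher, 494 lower), 1 in run1630 alone, 801 without CTL212 and CTL092 and 0 with the groups of the treatment field. Leaving out single libraries gave 960 to 1751 calls. Without CTL212 the 1357 calls became 3640 with no fold threshold and 0 with the run block or the treatment field, and leaving out single libraries gave 801 (CTL092) to 1850. Against Beta-Ac, DESeq2 called 186, the run block 13 and single libraries left out 0 to 0. The other settings stayed within 1.5 times, but the split moved by over 10 points with the run block (137 higher, 821 lower, all 5 saline libraries), the 3 animals with a lung library (647 higher, 779 lower), without CTL092 (211 and 763, all 5; 205 and 596, without CTL212) and without CTL113 (854 and 996, without CTL212). The group distance over the 500 most variable genes was 2.56, and 3.90 without CTL212, past no threshold. The distance over all genes tested was 7.24 to 15.4 with single libraries left out, and 9.61 to 16.7 with CTL212 also left out.

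Over the 56 named genes, 1065 values kept direction and call, 301 kept direction and lost the call, 1 gained it (PER1, with no fold threshold) and 38 changed sign. The treatment field sets the BAC libraries against saline, and it gave 43 of the lost calls and 12 of the sign changes. Under the treatment field the signs changed for KLHL14 (-0.085), CDH19 (-0.024), CHRNB4 (-0.15), CD99 (0.013), CDKN1C (0.25), GPR17 (-0.26), FKBP5 (0.12), HSD11B2 (2.19), NR3C2 (-0.074), NR3C1 (-0.23), ZBTB16 (-0.056) and SGK1 (0.25). In run1630 alone they changed for CP (0.22), HTR2C (0.74), EFNA5 (0.017) and NR3C1 (-0.023), and without CTL212 and CTL092 for CLIC6 (0.18), WFIKKN2 (0.065), ZBTB16 (-0.15) and SGK1 (0.0064). With the 3 animals HSD11B2 (0.18) and SGK1 (0.023) changed, with Y-linked reads as a term HSD11B2 (0.084) and ZBTB16 (-0.10), with no filter ZBTB16 (-0.0017), and with the run block NR3C1 (-0.19, and -0.17 in the 2 runs). With single libraries left out, NR3C1 ranged from -0.022 to 0.094, ZBTB16 from -0.067 to 0.12 and HSD11B2 from -0.35 to 0.13. Calls were also lost without at least 1 single library for DLG2, GABRA3 (without CTL092), DCN (without CEL126), GPR17 (without CTL209, CEL120 or CEL245), PLXNC1 (without CTL209), CDKN1C, EFNA5, KL, HTR2C, KLHL14, FCRL6, DEPTOR, TMCO4, TNIP3 and KLHL40. None of the named receptors or of HSD11B2, ZBTB16, SGK1 and FKBP5 was called, and the cause of these changes was not tested. No paired analysis was possible because the labels give the groups no shared replicate numbers. Genes below a few CPM rest on few reads.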

Other observations

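Another 25 gene families were looked at with the calls in view, and some held called members without CTL212. Over all genes tested, 5.01% were called lower and 2.83% higher without CTL212, and 5.35% and 2.5% with all 5 saline libraries. The family counts here and in the next paragraph stand against these shares. Mitochondrial carrier (36 tested), protocadherin (15), peroxisome (14) and MHC class II (7) genes had 0 calls in either fit. Of 23 voltage-gated calcium channel subunits, which let calcium into neurons and trigger transmitter release, 7 fell and 0 rose (CACNA1I, CACNA1B, CACNA1C, CACNA1E, CACNA1S, CACNA2D1 and CACNA2D3), with a median log2 fold change of -0.38, and 8 fell with all 5 saline libraries. CACNA1B, the pore of N-type channels, was at 190.3, 222, 161, 202 and 146 CPM with saline and 118, 129, 116, 121 and 106 CPM with the clinical drug. CACNA1E, of R-type channels, was at 126.1, 137, 123, 138 and 88.0 CPM with saline and 89.3, 99.9, 55.5, 77.7 and 65.5 CPM with the clinical drug. Their log2 fold changes were -0.72 (adjusted p = 0.0138) and -0.76 (adjusted p = 0.0184) without CTL212. Of 21 receptor tyrosine phosphatases 6 fell (PTPRT, PTPRJ, PTPRD, PTPRR, PTPRN and PTPRN2; median -0.39), and PTPRN2, a protein of dense-core vesicles, was at 120.2, 112, 94.6, 141 and 69.5 CPM with saline and 39.6, 49.2, 44.8, 59.7 and 56.8 CPM with the clinical drug (log2 fold change -1.23, adjusted p = 0.00981, without CTL212).

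Of 39 collagens 8 fell without CTL212 and 15 with all 5 saline libraries (median -0.43 and -0.90). The meningeal and fibroblast markers, some of them collagens, had medians of -0.83 and -1.12, and their summed level was 1203 CPM in CTL212 and 135 to 531 CPM in the other saline libraries. Their part in the collagen values was not tested. Of 42 proteasome genes 4 fell in either fit. Ribosomal protein genes were counted likewise, with 6 of 62 higher and 1 lower without CTL212 (median 0.26), but 2 higher and 1 lower with all 5 saline libraries. Of 329 zinc finger genes 4 rose and 1 fell without CTL212, with a median of 0.19, against 0.02 over all genes tested.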
